A study of Mus musculus with 6 samples.

Results

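The calcium handling genes of the sarcoplasmic reticulum, the store that feeds the heartbeat, were followed in immature cardiomyocytes (imCMs) co-cultured with neonatal or adult cardiac fibroblasts. The 10 members were taken by name: Ryr2, Casq2, Hrc and Jph2 of the release side, Atp2a2, Pln and Sln of the uptake side, and Slc8a1, Cacna1c and Cacnb2 of the surface membrane. All 10 were found among the 27179 gene rows of the bulk count table, and all 10 in both single-cell tables. The imCMs came from the left ventricles of C57BL/6 mice on the first postnatal day, and they were grown with neonatal fibroblasts (NFs, the imCM-NF group) or with adult fibroblasts (AFs, the imCM-AF group), both passaged before use. Relatively more AFs than NFs were plated per imCM, so fibroblast age and fibroblast number cannot be told apart. Bulk RNA-Seq gave 2 libraries of each group. Single-cell RNA-Seq gave 1 chip of wells labelled cardiomyocytes and 1 labelled fibroblasts, whose wells carry type names such as NFNCM1 or AFNCM1. The bulk titles pair NCM with NF or AF for libraries labelled cardiomyocytes with neonatal or adult fibroblasts, and the NFNCM and AFNCM wells are read in the same way. The labels do not explain the type names that hold a 0 (NCM0, NF0, AF0).

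In a cardiomyocyte, each action potential opens L-type channels (Cacna1c is the pore, Cacnb2 an auxiliary subunit), and the entering calcium opens the ryanodine receptor Ryr2, which empties the store onto the myofilaments. Calsequestrin (Casq2) and the histidine-rich protein Hrc bind calcium inside the store, and junctophilin Jph2 ties the store to the surface membrane. The pump SERCA2a (Atp2a2) refills the store and is held back by phospholamban (Pln) and, mainly in atria, by sarcolipin (Sln), while the exchanger Slc8a1 carries calcium out of the cell. Sarcoplasmic reticulum calcium cycling is weak at birth and strengthens as the heart matures.

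Pln and Hrc were the 2 members called different in the bulk comparison, and their promoter windows are therefore shown. Each window runs from 250 bases before to 50 bases after the RefSeq start (GRCm38.p6), 5′ to 3′, for Hrc at chr7:45335019-45335318 and for Pln at chr10:53337436-53337735, both on the plus strand. Capitals mark matches, on either strand, to a TATA box, a GATA word or an E-box. The TATA box searched was TATAAA. The GATA words were AGATAA, the same word ending in G, written AGATAG, the word TGATAA that begins with T, and its form TGATAG that ends in G. The E-boxes were CACCTG, its reverse complement, which reads CAGGTG, the palindrome with a central CG, which is CACGTG, and the palindrome with a central GC, which is CAGCTG.
Hrc: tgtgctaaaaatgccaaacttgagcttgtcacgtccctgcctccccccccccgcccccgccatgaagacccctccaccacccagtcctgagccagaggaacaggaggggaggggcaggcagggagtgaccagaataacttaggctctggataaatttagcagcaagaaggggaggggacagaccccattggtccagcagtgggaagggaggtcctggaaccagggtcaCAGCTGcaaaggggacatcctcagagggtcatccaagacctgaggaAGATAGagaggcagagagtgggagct
Pln: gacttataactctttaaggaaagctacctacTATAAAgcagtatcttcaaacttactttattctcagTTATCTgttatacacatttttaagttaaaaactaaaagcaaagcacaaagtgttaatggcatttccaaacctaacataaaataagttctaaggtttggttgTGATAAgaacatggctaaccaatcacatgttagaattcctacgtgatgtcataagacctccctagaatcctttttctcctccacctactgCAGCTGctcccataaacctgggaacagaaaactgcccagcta
Both windows held a GATA word and the E-box CAGCTG, and none of the marked words overlapped another. In the Hrc window the E-box began at position 229 and the GATA word at 275. In the Pln window the TATA box began at 32, GATA words at 68 and 169, and the E-box at 259. Such words are common: of all 32851 promoter windows, 29.8% held a GATA word, 37.7% an E-box of this kind and 13.6% a TATA box. Of the 8 members with a window, 4 held a GATA word in any of their windows (Cacna1c, Hrc, Pln and Slc8a1) and 6 an E-box. Cacna1c, Cacnb2 and Jph2 have more than a single window, so these counts per gene are not comparable with the shares per window. Casq2 alone held a MEF2 box, which 3.19% of all windows held, and no member window held a CArG box (1.63%) or the M-CAT word CATTCC (14.7%). The nuclear receptor word AGGTCA stood in the Jph2 and Ryr2 windows and in 16.3% of all windows. Atp2a2 and Sln had no entry. The members are spread over the genome (GRCm38.p6): Ryr2 lies on chromosome 13, Atp2a2 on 5, Pln on 10, Sln on 9, Casq2 on 3, Hrc on 7, Slc8a1 on 17, Cacna1c on 6, and Jph2 and Cacnb2 both on 2.

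The 4 bulk libraries held between 9278909 and 12088577 counted reads. The 12 cardiomyocyte markers, none of them a member, summed to 47768 and 35194 CPM (counts scaled to a common library size) in imCM-NF replicates 1 and 2 and to 44732 and 48467 in imCM-AF replicates 1 and 2. The second imCM-NF library therefore stood apart with the lowest cardiomyocyte signal. The 10 fibroblast markers summed to 19543 and 21635 CPM in imCM-NF and to 14620 and 11750 in imCM-AF, with 9 of 10 lower and 4 called lower. The 8 endothelial markers summed to 854 and 894 against 579 and 566 CPM, all 8 lower and 3 called. The 7 macrophage markers tested summed to 65.9 and 80.9 against 54.9 and 62.7 CPM, the 6 smooth muscle markers to 2370 and 2574 against 2109 and 1754, and the 7 atrial markers to 8264 and 5652 against 4234 and 4469. Nppa, called lower, made up most of the atrial sum, while 5 of the 7 had a positive log2 fold change, Bmp10 was called higher and their median was 0.10. The part of this difference in cell makeup in the member values was not tested, and fewer cells of a type and less RNA per cell cannot be told apart in bulk libraries.

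All 10 members had a positive log2 fold change for imCM-AF over imCM-NF, whereas 50.1% of the 14041 genes tested did. A gene was called when its Benjamini-Hochberg adjusted p from edgeR's quasi-likelihood test was under 0.05 and its absolute log2 fold change over 0.58. By this rule Hrc and Pln were higher in imCM-AF and no member was lower, that is 2 of 10, against 6.15% of all genes called higher, 4.99% called lower and 11.1% called in all. On adjusted p alone 4 of 10 members passed, all higher, against 12.5% of all genes higher and 27.0% in either direction. The median log2 fold change of the members was 0.37, against 0.0011 over all genes tested. In 7 of 10 members both imCM-AF libraries lay above both imCM-NF libraries, a pattern that 32.1% of all genes showed, and in no member did both lie below, as they did in 33.8% of all genes.

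**Figure D1:**
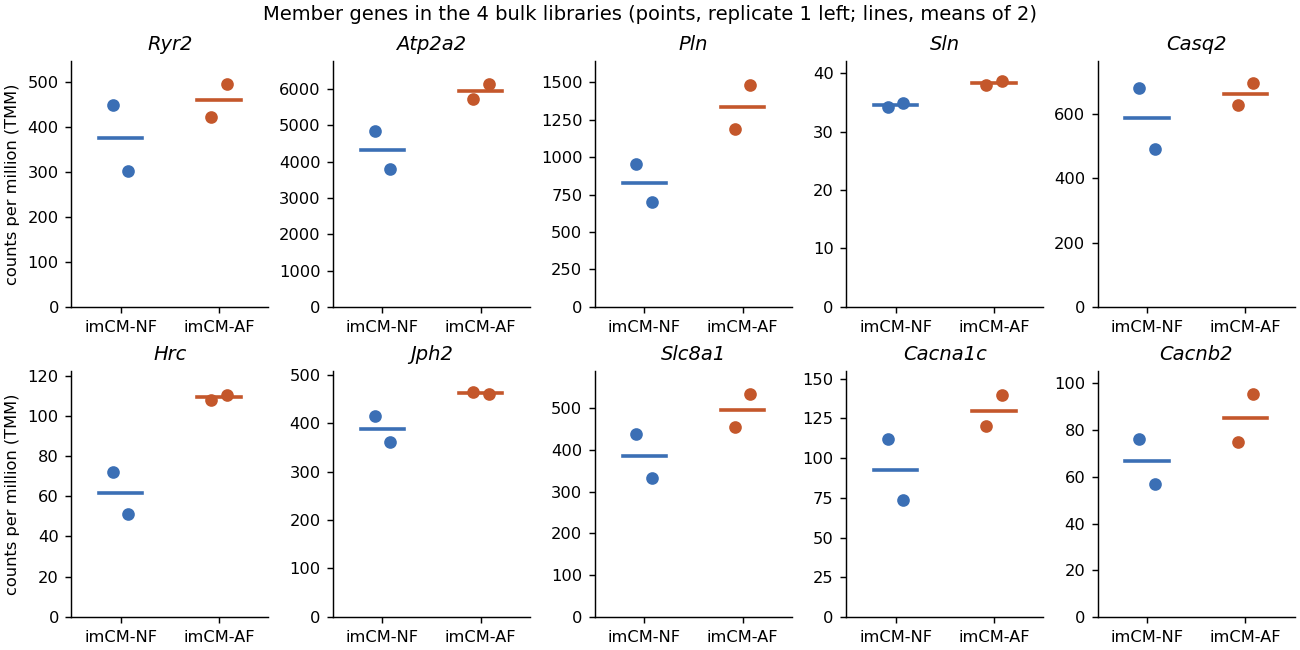
CPM (TMM scaled, vertical axes from 0) of each member in the 2 imCM-NF and 2 imCM-AF libraries, with points for libraries and lines for group means. The groups are separate in 7 panels and overlap for Ryr2, Casq2 and Cacnb2, and imCM-NF replicate 2 is the lowest of the 4 points in every panel except that of Sln.

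On the release side, Hrc moved most. Hrc was at 72.2 and 51.1 CPM in imCM-NF and at 108 and 110 CPM in imCM-AF. The imCM-AF libraries were nearly equal and both above imCM-NF, and the log2 fold change was 0.83 ± 0.12 (SE, n = 2 per group), or 1.78-fold, with adjusted p = 0.0001244 in the fit across all genes. Hrc was called in each of the 4 fits that left out 1 library, with a log2 fold change of at least 0.60.

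Ryr2, the release channel, was at 449 and 301 CPM in imCM-NF and at 423 and 496.5 CPM in imCM-AF. The groups overlapped, because imCM-NF replicate 1 lay above imCM-AF replicate 1, and the log2 fold change of 0.30 ± 0.15 (SE) did not pass (adjusted p = 0.158). Casq2, the main calcium buffer of the store, was at 682 and 492 CPM against 627 and 698 CPM. Its groups overlapped too, with a log2 fold change of 0.17 ± 0.14 (SE, adjusted p = 0.396), the highest adjusted p of the 10.

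Jph2, which holds the dyad together, was at 414 and 361 CPM in imCM-NF and at 464.5 and 461 CPM in imCM-AF. The groups did not overlap, yet the log2 fold change of 0.26 ± 0.11 (SE) missed the threshold (adjusted p = 0.104).

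On the uptake side, Pln, the brake on the pump, was called and the pump itself was not. Pln was at 952 and 698 CPM in imCM-NF and at 1185 and 1481 CPM in imCM-AF. Both imCM-AF libraries were higher, and the log2 fold change was 0.69 ± 0.16 (SE), or 1.62-fold (adjusted p = 0.00502). The call for Pln was lost without imCM-NF replicate 2 (log2 fold change 0.49, adjusted p = 0.077), without imCM-AF replicate 2 (0.53, adjusted p = 0.0531) and in the DESeq2 Wald test (0.70, adjusted p = 0.0678), and over all alternatives its adjusted p ranged from 5.81e-10 to 0.174. The gene span of Pln overlaps Cep85l in the annotation, and the library kit does not mark strand. Whether their exons overlap was not checked, and reads from any shared exon could not be assigned by strand.

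Atp2a2, the pump, was at 4838 and 3788 CPM in imCM-NF and at 5720 and 6146 CPM in imCM-AF. The groups did not overlap, and the log2 fold change of 0.46 ± 0.21 (SE) did not pass (adjusted p = 0.105). Sln, the atrial regulator of the pump, was at 34.2 and 34.9 against 38.1 and 38.7 CPM. The groups did not overlap but lay close together, and the log2 fold change was 0.15 ± 0.10 (SE, adjusted p = 0.289).

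At the surface membrane, both L-type channel genes passed the adjusted p alone and stayed under the fold threshold. Cacna1c was at 112 and 73.7 CPM in imCM-NF and at 120 and 140 CPM in imCM-AF, without overlap, with a log2 fold change of 0.49 ± 0.14 (SE, adjusted p = 0.0161). Cacnb2 was at 76.4 and 56.9 against 75.1 and 95.5 CPM, with overlap, and a log2 fold change of 0.37 ± 0.13 (SE, adjusted p = 0.0463). Slc8a1, the exchanger, was at 437 and 332 against 455 and 534 CPM, without overlap, and its log2 fold change of 0.37 ± 0.13 (SE) narrowly missed (adjusted p = 0.0529). The gene span of Cacna1c overlaps 7 annotated genes, Dcp1b among them, that of Cacnb2 overlaps 6 and that of Jph2 overlaps Gm35750. Shared exons were not checked for these either, and reads from any such exon could not be separated by strand.

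**Figure D2:**
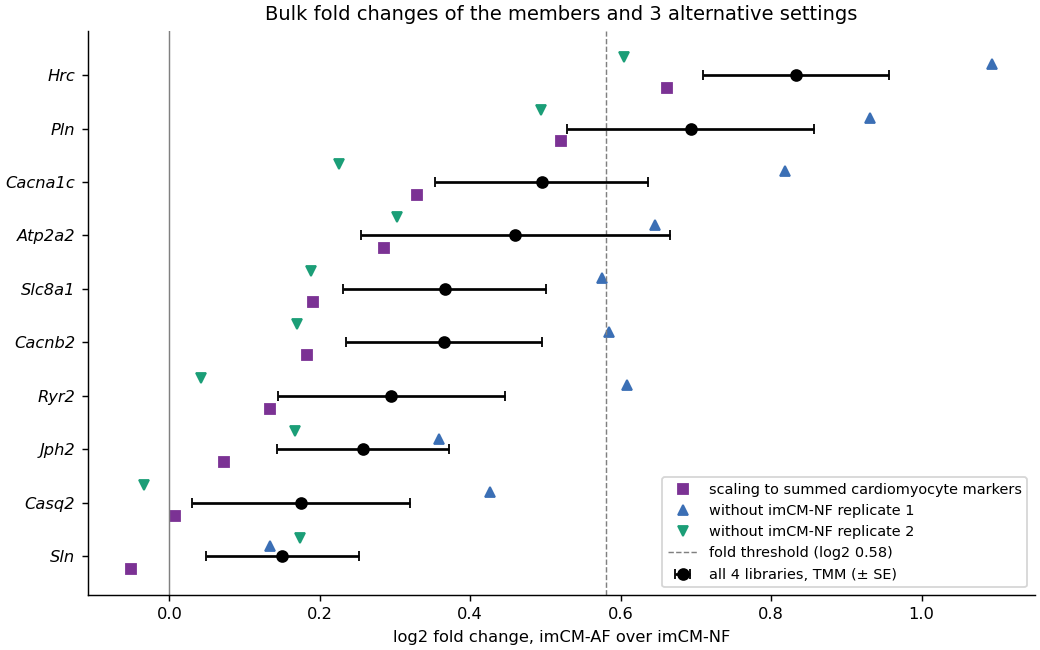
Log2 fold change of each member, imCM-AF over imCM-NF (horizontal axis), as fitted on all 4 libraries with its SE (black) and under 3 alternatives (coloured symbols). All members except Sln move to the left without imCM-NF replicate 2 and to the right without imCM-NF replicate 1, and only Hrc and Pln lie past the dashed threshold at 0.58 with all 4 libraries.

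The sizes of the member fold changes turned on single libraries. Over all alternatives, the log2 fold change of Ryr2 ranged from 0.043 to 0.61 and that of Pln from 0.49 to 0.93. All 10 members were positive without imCM-NF replicate 1, and 9 were without imCM-NF replicate 2, with Casq2 at -0.034. All 10 stayed positive without either imCM-AF library. The median of all genes lay between -0.0036 and 0.0064 in these fits. When the libraries were scaled to the 12 cardiomyocyte markers instead, the median of all genes moved to -0.20, so member values on that scale are read against this shift. There Hrc had a log2 fold change of 0.66 (adjusted p = 0.171) and Pln of 0.52 (adjusted p = 0.174), Sln was at -0.05, and no member was called. Across all genes, 32.8% of the calls were then higher in imCM-AF, against 55.2% with the TMM scaling.

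Per kilobase of exon, the order of the members was almost fixed. Atp2a2 had the highest level in all 4 libraries, with 709 ± 122 (SD, n = 2) RPKM (CPM divided by the exon length in kilobases) in imCM-NF and 976 ± 49.5 in imCM-AF. Pln came next (299 ± 65.1 and 483 ± 75.9 RPKM), then Casq2 (215 ± 49.0 and 242 ± 18.3) and Jph2 (91.0 ± 8.92 and 109 ± 0.605). Hrc and Sln were neighbours that changed places: Hrc was above Sln in imCM-NF replicate 1 (28.2 against 26.0 RPKM) and below it in replicate 2 (19.9 against 26.5), and it was above Sln in both imCM-AF libraries (42.2 and 43.0 against 28.9 and 29.4). Slc8a1 (20.4 ± 3.95 and 26.3 ± 2.99), Ryr2 (13.0 ± 3.63 and 16.0 ± 1.81), Cacnb2 (5.04 ± 1.04 and 6.45 ± 1.09) and Cacna1c (4.38 ± 1.27 and 6.14 ± 0.669) followed in this order in every library. The ranges of Cacnb2 and Cacna1c overlapped in both groups, and in imCM-NF those of Hrc overlapped with Sln and with Slc8a1. These lengths are exon unions, so a gene with many alternative exons, such as Cacna1c, reads low.

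Ratios between members within a library do not depend on the scaling between libraries. The 7 ratios formed are given as a description, without a test. The RPKM ratio of Hrc to Casq2, both luminal calcium binders, was 0.113 and 0.111 in imCM-NF and 0.184 and 0.168 in imCM-AF, so the groups were far apart and the replicates close. The ratio of Pln to Atp2a2 was 0.434 and 0.406 against 0.457 and 0.531, also without overlap. The ratio of Cacna1c to Ryr2, the channel pair of the dyad, was 0.339 and 0.332 against 0.386 and 0.383. The ratio of Slc8a1 to Atp2a2 differed little, at 0.0292 and 0.0283 against 0.0257 and 0.0281. The ratio of Sln to Atp2a2 was 0.0326 and 0.0426 against 0.0307 and 0.0291, and that of Sln to Pln 0.0752 and 0.105 against 0.0672 and 0.0547, both lower in imCM-AF without overlap.

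Ryr2, Atp2a2, Casq2, Jph2, Slc8a1, Cacna1c and Cacnb2 have close relatives used in other muscles or tissues, and these 15 paralogs were mostly scarce. No paralog of Pln, Sln or Hrc was listed. In the bulk libraries 8 of them passed the filter of over 1 CPM in at least 2 libraries, and 1, Casq1, was called. Casq1, the calsequestrin of fast skeletal muscle, was at 155 and 102 CPM in imCM-NF and at 52.8 and 78.2 CPM in imCM-AF. Both imCM-AF libraries were lower, and Casq1 fell by 0.97 ± 0.17 (SE) on the log2 scale, or 1.95-fold (adjusted p = 0.000524), while Casq2 did not pass. In the DESeq2 test Casq1 had an adjusted p of 0.0879. The RPKM ratio of Casq1 to Casq2 was 0.319 and 0.292 against 0.118 and 0.157. The 7 paralogs that were not tested, Ryr1, Atp2a1, Jph3, Jph4, Slc8a3, Cacna1s and Cacnb4, were at 1.185 CPM or less in each library. Among the other tested paralogs Cacnb3 was highest, at 68.7 to 90.5 CPM.

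The wider calcium machinery was read from 7 lists that include the paralogs, with 86 genes, of which 75 were tested. Of these 4 were called higher and 5 lower in imCM-AF, with 6.15% and 4.99% of all genes as the background, and their median log2 fold change was 0.04. The T-tubule and dyad list leaned most to one side. Of its 11 genes 9 were positive and the median was 0.47, yet Smyd1 alone was called. Smyd1, a muscle methyltransferase of sarcomere assembly, was at 296 and 225 CPM in imCM-NF and at 384 and 398 CPM in imCM-AF (log2 fold change 0.59 ± 0.12, SE, adjusted p = 0.00232). Camk2d, Akap6, Tcap and Speg passed the adjusted p with log2 fold changes of 0.47 to 0.55 and were under the fold threshold, and Bin1, which shapes the T-tubule membrane, passed in the other direction at -0.55 ± 0.13 (SE).

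Of the 22 release and luminal partners tested, 15 were negative. Ank2, the ankyrin that anchors the exchanger and the sodium pump, was called higher (54.2 and 40.9 against 68.4 and 76.9 CPM, log2 fold change 0.62 ± 0.12, adjusted p = 0.00107). Itpr3, an inositol trisphosphate receptor, was called lower (32.7 and 37.1 against 21.1 and 19.3 CPM, log2 fold change -0.79 ± 0.12, adjusted p = 0.000127). Trdn, the triadin that links Casq2 to Ryr2, had 0.50 ± 0.13 (SE) and passed only the adjusted p (0.00954).

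Among the surface channel subunits and brakes, Cacna2d2 (4.68 and 3.64 against 8.49 and 8.07 CPM, log2 fold change 1.01 ± 0.22, adjusted p = 0.00245) and the T-type channel Cacna1h (32.0 and 20.2 against 39.7 and 38.2 CPM, 0.60 ± 0.15, adjusted p = 0.00749) were called higher. Rem1, an inhibitor of L-type channels, was called lower (5.68 and 5.54 against 3.10 and 2.60 CPM, -0.97 ± 0.25, adjusted p = 0.00755). Of the extrusion list the plasma membrane pump Atp2b4 was called lower (24.9 and 26.9 against 16.7 and 17.4 CPM, -0.61 ± 0.12, adjusted p = 0.00181). None of the 12 adrenergic and phosphatase genes was called, and 2 of them, Adrb1 (0.57 ± 0.15, adjusted p = 0.0103) and Prkar2a (0.27 ± 0.097, adjusted p = 0.0498), passed the adjusted p. The 9 called genes kept their sign in all 16 alternatives tried. Without imCM-NF replicate 2 only Itpr3 and Casq1 of the 9 were still called, and under cardiomyocyte marker scaling the 4 called higher were not (adjusted p from 0.154 to 0.462).

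In the single-cell data molecules were counted in each well by unique molecular identifiers (UMIs), whose sums over wells are given in CPM, and 1259 of the 1409 wells on the cardiomyocytes chip passed the filters. Their median was 17504 UMIs and 2702 genes. The 8 types NCM0_1, NCM0_2, NFNCM1 to NFNCM3 and AFNCM1 to AFNCM3 all share 1 library, and the labels do not explain their numbers. No test was therefore made between types, and the intervals cover counting error only. The 2 chips share 269 well barcodes, and wells were therefore always read together with their chip. The chip labelled cardiomyocytes was mixed. Clusters were formed without the 10 members and named from fixed markers, which gave 617 cardiomyocyte-like wells (49.0%), 288 fibroblast-like (22.9%), 63 endothelial-like, 36 atrial-like (2.86%) and 18 macrophage-like wells (1.43%), and 237 wells in 2 clusters of low UMI count without a name. Cardiomyocyte-like wells made up 68.3% of NCM0, 55.2% of NFNCM and 32.9% of AFNCM wells.

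Over all kept wells, 9 of 10 members were lower in AFNCM than in NFNCM wells, the exception being Sln, while 36.5% of 8469 genes with at least 10 CPM were lower. Ryr2 was at 118 to 138 CPM in the 3 AFNCM types and at 155 to 159 in the 3 NFNCM types. Jph2 was at 20.8 to 26.1 against 35.8 to 41.3. These were the 2 members whose types did not overlap, and 7.50% of all genes lay that way. Which members overlapped changed with the counting. As means over wells, Atp2a2, Pln, Casq2, Jph2, Slc8a1 and Cacna1c had all AFNCM below all NFNCM types and Ryr2 overlapped. With each well thinned to 1 number of UMIs, Ryr2, Atp2a2, Pln, Casq2 and Slc8a1 did and Jph2 overlapped, and without the well filters Jph2 alone lay below. The share of all genes that lay that way was not counted on these other measures. Pln was at 1515 to 2001 against 1959 to 2208, and Atp2a2 at 2184 to 2448 against 2390 to 2769. The cardiomyocyte markers moved alongside, at 35798 to 40463 CPM in AFNCM and 42686 to 49945 in NFNCM, and so did the fibroblast markers in the other direction, at 3194 to 3327 against 1442 to 1955, and the endothelial markers, at 398 to 547 against 35.3 to 194. The unnamed wells made up 27.4% of AFNCM and 15.1% of NFNCM wells, and the fibroblast-like wells 24.8% and 23.3%. The part of these differences in the member values was not tested.

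Within the cardiomyocyte-like wells the difference between AFNCM and NFNCM was smaller for 8 of the 9 members that were lower over all wells, Hrc being the exception. In summed UMIs no member had all AFNCM types below or above all NFNCM types, as 6.61% and 11.3% of all genes did. Here 4 of 10 members were lower in AFNCM (Ryr2, Jph2, Slc8a1 and Cacnb2), with 41.3% of all genes lower, and the median log2 ratio of the members was 0.05. Different clusters supplied these wells. Cluster 7, led by Sprr2a1 and the interferon-induced genes Iigp1, Igtp and Ifit1, held 133 of 163 AFNCM wells, whereas clusters 1, 5 and 6 held 253 of 282 NFNCM wells and cluster 8 held 83 of 97 NCM0_2 wells. AFNCM1 stood apart from the other two AFNCM types, with 24 of its 46 cardiomyocyte-like wells in clusters 1, 5 and 6, which held 1 such well of AFNCM2 and none of AFNCM3. Cardiomyocyte markers summed to 59170 to 68736 CPM in these AFNCM wells and to 64663 to 68961 in these NFNCM wells.

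Hrc, called higher in the bulk libraries, was at 126, 188 and 154 CPM in the cardiomyocyte-like wells of AFNCM1 to AFNCM3 and at 159, 117 and 127 in those of NFNCM1 to NFNCM3. The types overlapped, because AFNCM1 lay below NFNCM1, and the pooled log2 ratio was 0.30, or 0.38 without AFNCM1. As means over wells Hrc was at 150 to 187 CPM in the AFNCM types and at 123 to 145 in the NFNCM types, a log2 ratio of 0.40, and it was the only member whose types did not overlap on that measure. The share of all genes without overlap on that measure was not counted. Pln was at 3784, 3423 and 2862 against 3191, 3157 and 3151. The NFNCM types were nearly equal, the AFNCM types spread to both sides of them, and the pooled log2 ratio was 0.06. Atp2a2 was at 4113, 3993 and 3166 against 3520, 3779 and 3487, again on both sides, with a log2 ratio of 0.04.

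Jph2 had the lowest ratio of the members in summed UMIs. It was at 49.5, 29.1 and 29.0 CPM in the cardiomyocyte-like AFNCM types against 63.3, 37.6 and 47.0 in NFNCM, a log2 ratio of -0.54, or -0.73 without AFNCM1. As a mean over wells it was at 41.5 against 42.9 CPM, a log2 ratio of -0.05, so no order is given. Its intervals were wide, with 54 to 125 UMIs per type. Ryr2 was at 245, 161 and 162 against 204, 197 and 183, so that AFNCM1 lay above and the other two below all NFNCM types. Casq2 was at 375, 383 and 407 against 383, 423 and 320, without a clear side. Slc8a1 (56.8 to 115 against 64.7 to 129), Cacna1c (31.7 to 35.6 against 21.1 to 47.6), Cacnb2 (34.6 to 97.6 against 61.3 to 87.6) and Sln (36.7 to 77.9 against 12.7 to 120) overlapped widely between the kinds. Without AFNCM1, 3 of 10 members were lower in AFNCM (Ryr2, Jph2 and Cacnb2).

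**Figure D3:**
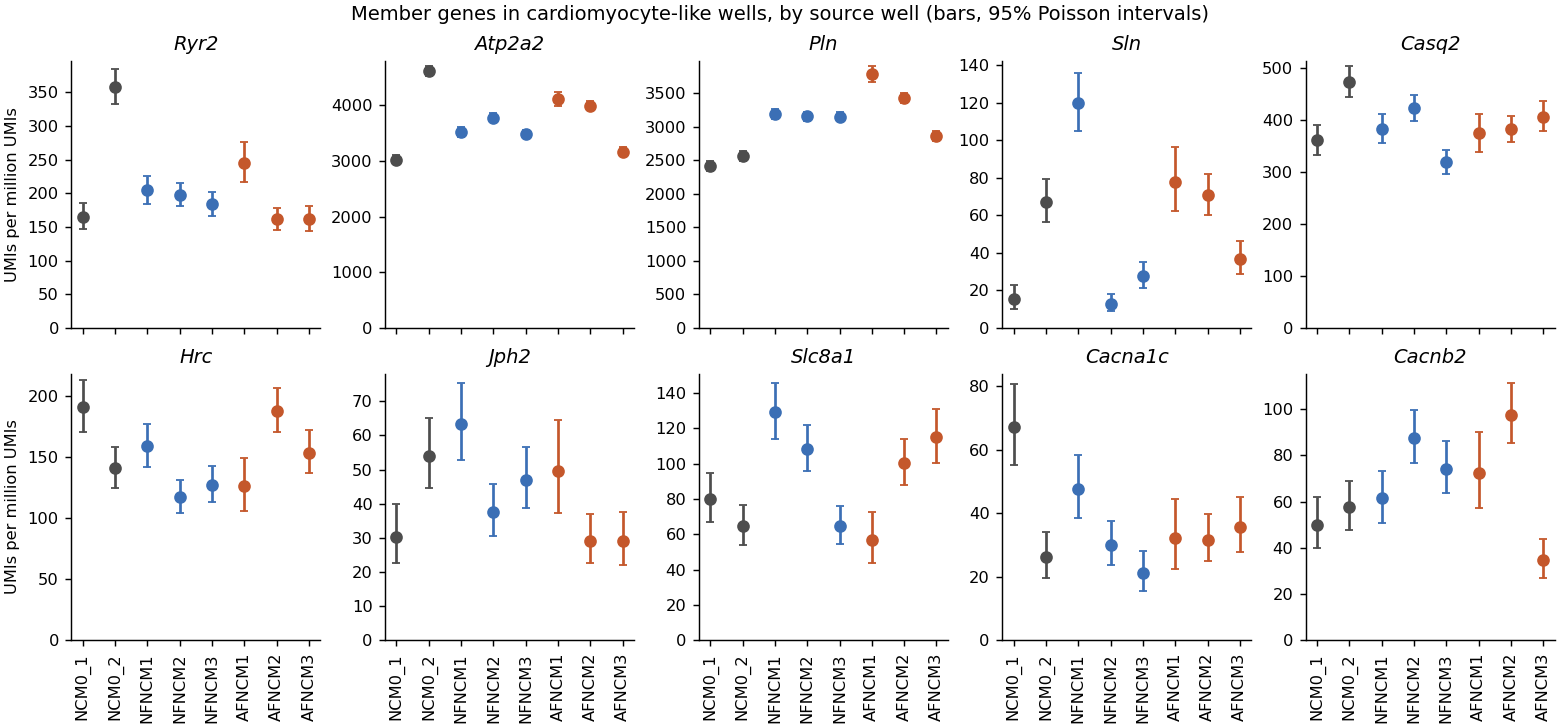
CPM (vertical axes from 0) of each member in the cardiomyocyte-like wells of the 8 types on the cardiomyocytes chip, with exact 95% Poisson intervals that cover counting error only. Grey marks NCM0, blue NFNCM and orange AFNCM types, and the orange and blue points overlap in all 10 panels.

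Among cardiomyocyte-like wells, Pln was the only member whose NCM0 types lay outside the range of both co-cultures. Over all kept wells the NCM0 types lay above both co-cultures for Ryr2, Casq2 and Hrc and below both for Sln. There Pln overlapped the NFNCM types, and the share of all genes outside both ranges was not counted. In cardiomyocyte-like wells Pln was at 2408 and 2564 CPM in NCM0_1 and NCM0_2, below all 6 co-culture types, which lay between 2862 and 3784. Of all genes 7.90% lay below every NFNCM type in this way and 10.9% below every AFNCM type, and the share below both together was not counted. Cacnb2 was at 49.9 and 57.5 in NCM0, below the NFNCM range and inside the AFNCM range. Ryr2 split the NCM0 types, with 165 in NCM0_1 and 358 in NCM0_2, and Atp2a2 did too, with 3023 and 4613. The NCM0 types also fell mostly in different clusters, with 55 of 75 NCM0_1 wells in clusters 1, 5 and 6.

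**Figure D4:**
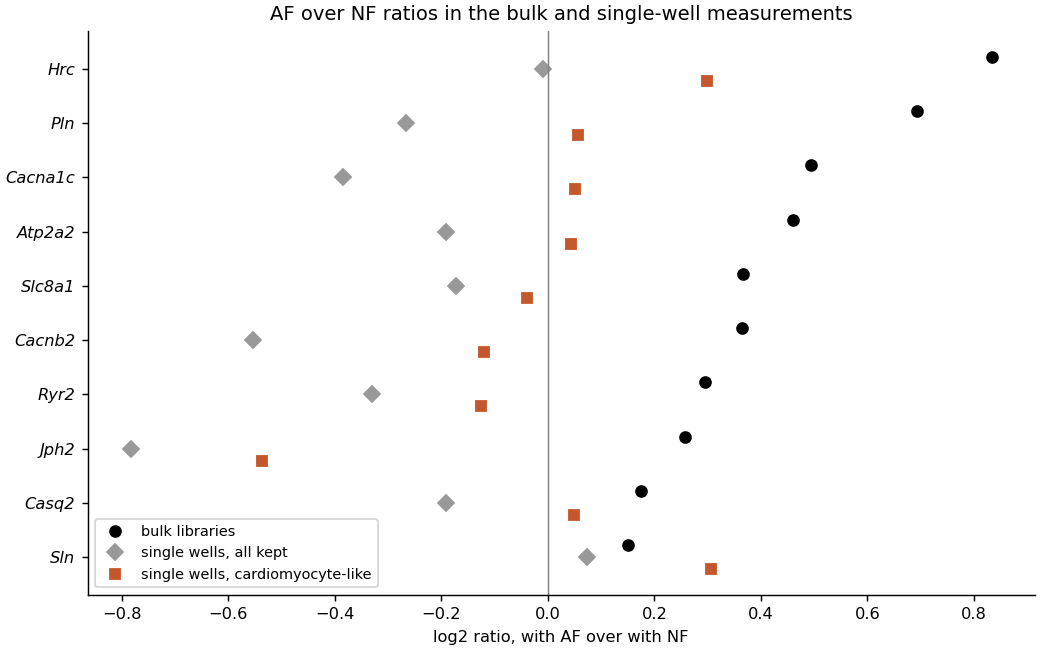
Log2 ratio of each member with AFs over with NFs (horizontal axis) in the bulk libraries (black), in all kept wells of the cardiomyocytes chip (grey) and in its cardiomyocyte-like wells (orange). The sources differ in scaling and cells, and the positions are not tested against each other. All 10 bulk points lie right of 0, 9 of 10 grey points lie left of it, and 6 of 10 orange points lie right of it.

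Shares of wells with a UMI were compared at equal depth. After each cardiomyocyte-like well was thinned to 5000 UMIs, which kept 546 of 617 wells (149 AFNCM and 247 NFNCM), Pln was seen in 99.3% of AFNCM and 99.6% of NFNCM wells and Atp2a2 in all of both. Ryr2 was seen in 45.6% and 53.9%, Casq2 in 75.8% and 74.5%, Hrc in 37.6% and 29.2%, and Jph2 in 16.8% and 15.0%. The share for Jph2 went against its CPM, so no order is read from it. Unthinned, Hrc was seen in 61.3% and 53.2% and Jph2 in 44.2% and 35.1%. Unthinned AFNCM wells were deeper, with a median of 30318 UMIs against 22092.5 in NFNCM wells. In the thinned fibroblast-like wells of the same chip Pln was seen in 51.8%, Ryr2 in 19.4%, Casq2 in 24.9%, Hrc in 8.70% and Jph2 in 6.32%, with unthinned medians of 24260 UMIs there and 21851 in the cardiomyocyte-like wells.

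Sln had a distribution unlike that of the other 9 members. The 36 atrial-like wells, 2.86% of all, held 16986 of its 21188 UMIs on the chip, or 80.2%, while they held between 2.38% (Pln) and 10.5% (Slc8a1) of the UMIs of the others. Sln reached 13626 CPM there, against 51.1 in the cardiomyocyte-like wells. Pln went the other way, with 1114 against 3050. Atp2a2 (4730 against 3712), Casq2 (538 against 392), Ryr2 (389 against 207) and Slc8a1 (178 against 92.2) were higher in the atrial-like wells. Cacnb2 was lower there, at 48.1 against 68.5. Cacna1c was at 16.9 against 35.3 in summed UMIs but at 51.3 against 38.6 as a mean over wells, so no order is given, and the intervals of Hrc and Jph2 overlapped between the classes. Atrial-like wells occurred in all 8 types, as 0.549% to 4.20% of the wells. Over all kept wells Sln was at 465 CPM in AFNCM2, which had 1 atrial-like well, and at 1378 and 819.5 in AFNCM1 and AFNCM3, which had 6 and 7. NFNCM1 to NFNCM3, with 5, 6 and 5 such wells, were at 448, 1026 and 781 CPM. NCM0_1 and NCM0_2, with 3 each, were at 106 and 434.5, so Sln did not follow this count across all types. These classes were drawn from the same wells, so the differences between them are a description.

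In fibroblast-like wells the 12 markers stood at 15.8% to 23.6% of their cardiomyocyte-like level, and Pln (17.6%), Cacna1c (18.5%), Cacnb2 (18.9%) and Hrc (20.5%) lay in that range. Ryr2, Atp2a2 (24.1%) and Casq2 (26.4%) lay just above it, and Slc8a1 (34.5%), Jph2 (40.8%) and Sln (536%) lay well above it. In endothelial-like wells Ryr2 (38.6%), Slc8a1 (62.8%), Sln (273%) and Cacna1c lay above the highest marker, at 31.0%. In the 18 macrophage-like wells Atp2a2 had 288 UMIs, or 492.5 CPM, with at least 1 in every well. Pln had 77 UMIs there, Casq2 12 and Hrc 9. Jph2 had 0, with 6.31 CPM as the upper end of its exact 95% Poisson interval.

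Jph2 stood out on the fibroblasts chip, whose values come from a separate library. In its AF0 wells Jph2 was at 53.8 and 57.4 CPM in the 2 types and was seen in 62.2% and 70.4% of wells, above the 42.0 of the cardiomyocyte-like wells on the other chip. The NF0 types had 30.7 and 58.04, the AF types 16.7 and 21.0 and the NF types 27.2 and 21.5 CPM of Jph2. Cardiomyocyte markers were nearly absent from the AF0 wells, at 0.0469% to 0.739% of their cardiomyocyte-like level, and so were Pln (0.0647%), Hrc (0.0658%), Casq2 (0.201%) and Ryr2 (0.286%). Atp2a2, which many cell types use, had 164 to 412 CPM in all 8 types of the chip. Cacna1c stood at 5.58% in AF0 on 20 UMIs, and Slc8a1 and Cacnb2 at 0.856% and 1.01% on 8 and 7 UMIs. In the NF0 and NF types the cardiomyocyte markers summed to 3704 to 5378 CPM, against 124 to 1063 in AF0 and AF, and Pln was at 75.2 to 140 against 0.899 to 48.3.

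**Figure D5:**
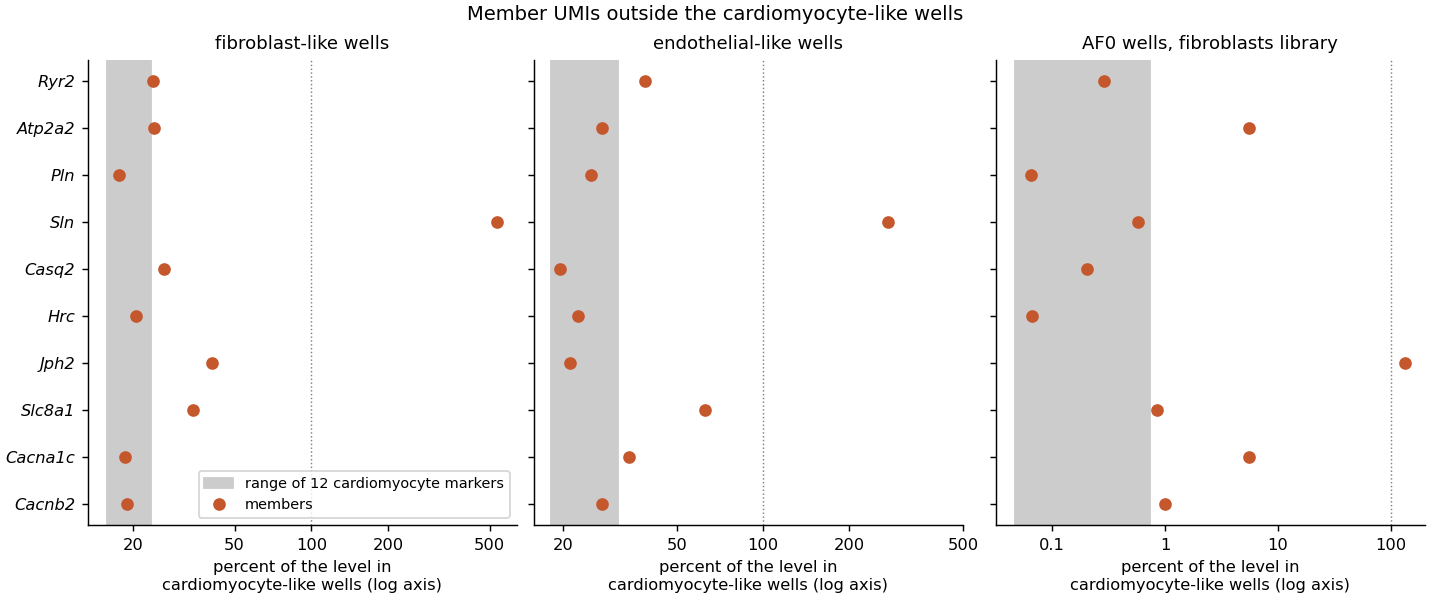
Level of each member in fibroblast-like and endothelial-like wells of the cardiomyocytes chip and in AF0 wells of the fibroblasts chip, as percent of its level in cardiomyocyte-like wells (log axes), with the range of the 12 cardiomyocyte markers as a grey band. Sln in the first 2 panels and Jph2 in the third lie beyond the dotted line at 100%.

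The paralogs were rare in the cardiomyocyte-like wells as well. Casq1 led them with 20.1 CPM, followed by Cacnb3 with 9.47 and Jph1 with 9.35, and the other 12 were at 3.30 or less, with 1 to 53 UMIs each over the 617 wells.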

How the data were processed

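Bulk libraries were prepared with a kit that does not mark strand. The authors mapped the reads to mm10 with Subread and deposited raw counts per gene for Entrez identifiers. The submitters' processing notes name Subread 1.4.6-p1, STAR 2.5.2b and featureCounts. For the ICELL8 chips the authors mapped with STAR, assigned reads to Ensembl genes and deposited UMI counts per well. Labels describe centrifugation and the methods describe sorting to obtain the cardiomyocytes. Gene symbols came from RefSeq (GRCm38.p6) and GENCODE tables.

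Counts were tested with edgeR 4.0.16 (glmQLFTest, R 4.3.3, TMM scaling, genes with CPM over 1 in at least 2 of 4 libraries, Benjamini-Hochberg over 14041 genes), checked on simulated counts. The labels do not say that replicates came from separate cultures, so p-values measure the spread between these libraries, which may be technical. The SE of each log2 fold change was its absolute value divided by the square root of the quasi-likelihood F. This F draws on information from all genes, so the SE is not the spread of the 2 libraries of a group. RPKM used GENCODE exon-union lengths. Wells were kept with at least 500 genes without mitochondrial genes, over 50% aligned reads and a summed UMI count no further than 2 SD from the average well. Clusters came from scanpy 1.11.5 (2000 variable genes, 10 components, 30 neighbours, Leiden resolution 1), and a name needed at least 3 raised markers. A raised marker had a log2 fold over 0.58 against the other wells and was seen in at least 10% of wells. No doublet caller was run. The named genes are all 10 members, the genes of the wider lists called in bulk (up to 12), paralogs as counts and levels, and markers as sums. A gene named outside this rule was chosen after its values were seen, and some genes of the wider lists are counted but not reported here. The members and lists were chosen with earlier results of these data known. Alternatives covered scaling, filters, tests, thresholds, single libraries and the replicate block for bulk, and well filters, weighting, thinning and clustering for wells.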

Additional observations from a re-analysis of the deposited data

How the results depend on the processing

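The bulk comparison called 1564 genes, 2 members and 9 genes of the wider lists. Scaling to the cardiomyocyte markers gave 693, 0 and 4 in turn, the adjusted p alone 3789, 4 and 27, and an absolute log2 fold change over 1 gave 565, 0 and 1. DESeq2 called 1 member. Leaving out 1 library gave 879 to 1929 genes, 1 to 6 members and 2 to 18 wider-list genes. The log2 fold change stayed positive for 9 members without imCM-NF replicate 2, and for all 10 without each of the other libraries in turn. Sln turned to -0.051 under cardiomyocyte marker scaling, and Casq2 ranged from -0.034 (without imCM-NF replicate 2) to 0.43 over its alternatives. The causes were not tested. In the wells, 4 of 10 members were lower in AFNCM when cardiomyocyte-like clusters were used alone, against 9 over all kept wells, and 10 without the well filters.

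The titles number the replicates 1 and 2 in both groups. Same-numbered libraries did not deviate together (correlation -0.13), and the replicate block gave 1430 genes with 2 members called. Crossed pairing, added after seeing the data, called 1668 genes and 2 members. Leaving out AFNCM1 and averaging wells within the cardiomyocyte-like class were also added after seeing the data. With 2 libraries per group and 1 library per chip, small differences cannot be resolved, and members at low CPM rest on few molecules per type.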
